A study of Mus musculus with 2 samples.

Results

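The classical and non-classical genes of the mouse major histocompatibility complex (MHC), which is called H2 in the mouse, were examined for open chromatin in the urinary bladder. All protein-coding genes on chromosome 17 whose symbol begins with H2- were taken, 34 of the 21938 protein-coding genes on chromosomes 1 to 19, X and Y. By the letter after the prefix, 25 counted as class I (K, D, Q, T and M genes) and 9 as class II (A, E, DM and O genes). The letter rule put H2-Ke6 among the class I genes, although it encodes a hydroxysteroid dehydrogenase and no MHC protein. DNase-seq, which sequences the ends left where the enzyme DNase I cuts accessible chromatin, had been applied to the urinary bladders of B6CASTF1/J males at 14 days of age. These are first-generation hybrids that carry 1 C57BL/6J and 1 CAST/EiJ copy of every autosome. The single group held 2 libraries. The labels describe replicate 2 as 3 pooled males and name a male in the singular for replicate 1. No treatment or genotype was compared, so no test was run. The looser of the 2 deposited peak lists held 139821 peaks in replicate 1 and 82225 in replicate 2, and 73164 regions held peaks of both. The signal rose in equal steps, each worth 0.00521 in the former library and 0.00799 in the latter. If such a step stands for a single cut, the strongest peak of H2-D1 held 2545 and 1258 cuts and that of H2-Q2 held 92 and 62.

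Class I molecules show peptides from inside the cell to cytotoxic T cells, and nearly all nucleated cells carry the classical ones, H2-K and H2-D. Class II molecules show peptides from engulfed material to helper T cells and are made mostly by dendritic cells, B cells and macrophages, or by other cells under interferon gamma. Class II promoters are known for a conserved module in which an X box, bound by the RFX complex and CREB-family factors, precedes a Y box bound by NF-Y. The coactivator CIITA docks on that module. NLRC5 serves class I promoters, which also carry an enhancer A bound by NF-kB.

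The X-Y module is printed here for the 5 class II promoters in which it was found, because footprints overlapped it at some of them. A footprint is a short stretch within accessible chromatin that is cut less than its surroundings, as called by the authors. The search letters were AGNAAC for the X1 core, followed after 24 to 32 bases by ATTGG, the Y box, on the same strand, with both strands searched. The sequences are from mm10, 5′ to 3′ on the strand of the gene, and capitals mark the X1 core and the Y box.
H2-Oa (chr17:34092296-34092346): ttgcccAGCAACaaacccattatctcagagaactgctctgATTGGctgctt
H2-DMb1 (chr17:34153090-34153140): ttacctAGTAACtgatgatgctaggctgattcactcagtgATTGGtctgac
H2-Ob (chr17:34238811-34238858): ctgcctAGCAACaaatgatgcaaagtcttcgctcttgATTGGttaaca
H2-Eb1 (chr17:34305769-34305818): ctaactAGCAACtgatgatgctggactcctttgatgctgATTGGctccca
H2-Eb2 (chr17:34325536-34325585): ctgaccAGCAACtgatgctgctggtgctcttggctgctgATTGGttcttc

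All 5 lay on the strand of their gene, with gaps of 25 to 28 bases, and ended between 96 and 39 bases before the transcription start site (TSS) given by RefSeq. In the RefSeq promoter table for this build, which covers 250 bases before to 50 after a TSS, 31 of the 34 genes had an entry. H2-Ab1, H2-Q1 and H2-T24 had none. Motif shares below are counted in this table, a window added after the data were seen, and those of 300 bases at the annotated gene start are given beside them where they differ. The spaced module was found in 5 of 8 class II promoters (62.5%) and in 93 of 16522 promoters of all protein-coding genes (0.563%), and at the annotated gene starts in 4 of 9 (44.4%) beside 0.629%. In class I it matched 1 of 23 promoters (4.35%), that of H2-M10.4, where it lay after the TSS. At H2-Eb1 1 footprint in each replicate covered the whole module, from 98 to 49 bases before the TSS in replicate 1 and from 99 to 48 in replicate 2. At H2-DMb1 footprints overlapped only part of it: those of replicate 1 ran from 101 to 64 and those of replicate 2 from 100 to 94 and from 89 to 69 bases before the TSS, and neither reached the Y box. At H2-Ob 1 footprint of replicate 1, from 99 to 68 bases before the TSS, overlapped the X1 core but not the Y box, and none did in replicate 2. No footprint overlapped the module at H2-Oa or H2-Eb2. Both promoters with such a footprint in each replicate also had a peak in each, as given next. A footprint can be called only where there are enough cuts, so its absence from a promoter without a peak shows nothing about binding. The letters are strict, and a promoter that they miss may still hold a variant of the module. H2-Aa had no AGNAAC, but its promoter held TGACG, the X2 core, and then ATTGG on the strand of the gene. In replicate 1 footprints from 86 to 59 and from 55 to 40 bases before the TSS covered these. In replicate 2 those from 85 to 56 and from 54 to 41 did. The class I promoters of H2-K1, H2-D1, H2-Q7 and H2-M3 also held TGACG and then ATTGG on the strand of the gene. A footprint overlapped that TGACG in each replicate at all of them, and that ATTGG in each replicate at H2-K1 alone.

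A promoter was counted as open where peaks of both replicates overlapped each other within 1 kb of any annotated TSS. By this rule 6 of 9 class II genes (66.7%) and 11 of 25 class I genes (44.0%) were open, beside 66.1% of all protein-coding genes and 66.1% of the other protein-coding genes of chromosome 17. The class II share was thus close to the background and the class I share below it. The lower class I share lay with the M genes: the 13 class I genes outside that subfamily were open in 10 cases and the 12 M genes in 1.

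**Figure D1:**
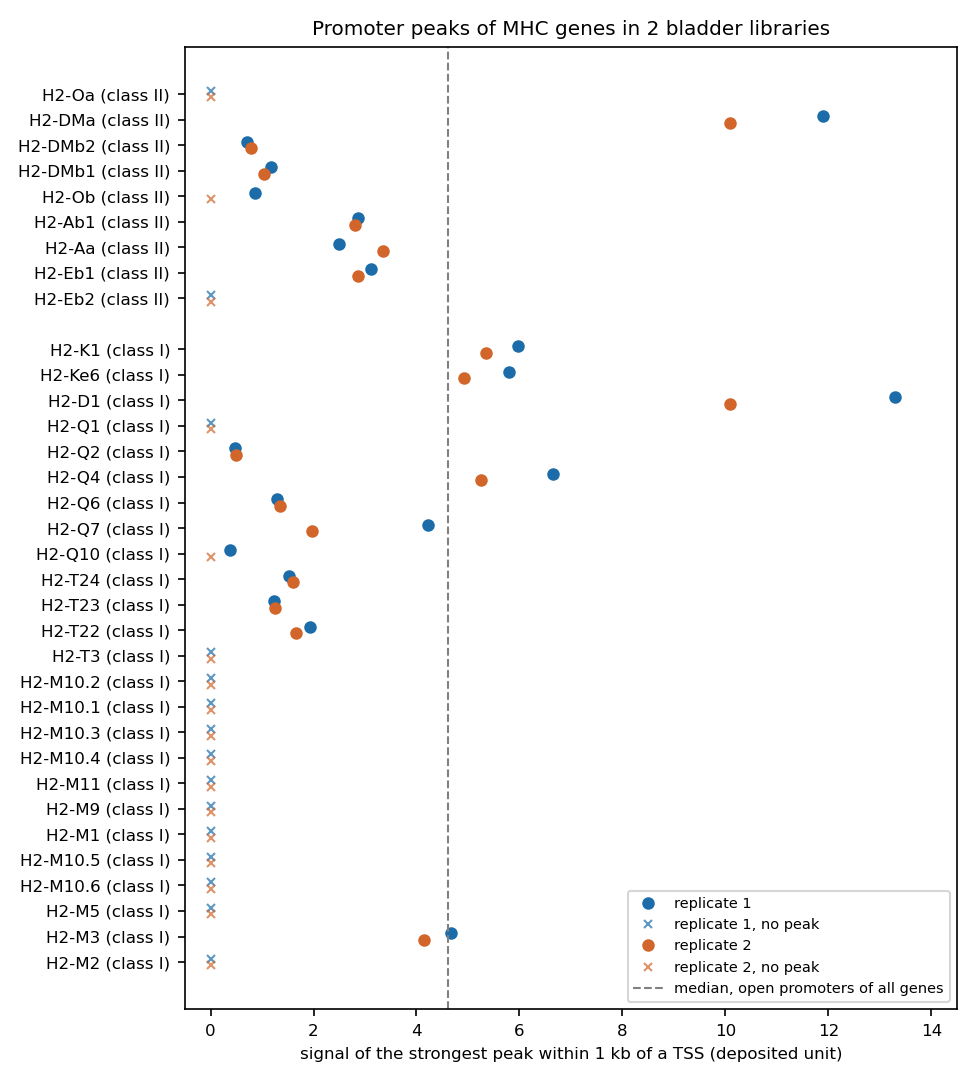
Signal of the strongest peak within 1 kb of a TSS for each of the 34 genes, in the deposited unit. Each gene has 1 point per replicate, a cross marks a replicate with no peak, and the dashed line is the median over open promoters of all protein-coding genes (4.62). H2-D1 and H2-DMa stand to the right of the other 32 genes in both replicates, and 11 of the 12 M genes have no peak.

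Among the genes for the classical class II chains, the 3 open promoters had closely similar signals. H2-Ab1, which encodes the A beta chain, had a signal of 2.87 in replicate 1 and 2.81 in replicate 2. H2-Aa, for the A alpha chain, had 2.49 and 3.34. H2-Eb1, for the E beta chain, had 3.12 and 2.87. The mean signals, 2.84 ± 0.039, 2.92 ± 0.60 and 3.00 ± 0.18 (SD, n = 2), differed from each other by less than the SD of H2-Aa. All 3 were below the median of open promoters (4.62), and each was higher than 32.2% to 33.8% of them. H2-Eb2, the neighbour of H2-Eb1, had no peak within 1 kb of a TSS in either replicate.

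The genes for the helpers of class II loading covered a wider range. H2-DMa, H2-DMb1 and H2-DMb2 encode the chains of H2-M, which exchanges peptides on class II molecules. H2-DMb1 had a signal of 1.17 in replicate 1 and 1.04 in replicate 2. H2-DMb2 had 0.713 and 0.791, the lowest among the 6 open class II promoters. H2-DMa had 11.9 and 10.1, the highest among the 9, but these values came from different peaks. That of replicate 1 lay at chr17:34135321-34135540 and that of replicate 2 at chr17:34119421-34119480. The annotated TSSs of H2-DMa also lie along the neighbouring gene Brd2, a widely expressed chromatin reader. In replicate 1, 7 of the 8 promoter peaks of H2-DMa had a Brd2 TSS as the nearest start of another gene, 13 to 1059 bp away. In replicate 2 this held for 4 of 5, 17 to 1070 bp away. The remaining region, at chr17:34135321-34135560 in an exon of H2-DMa, had a signal of 11.9 and 9.56. It was centred 187 bp from an annotated TSS of H2-DMa and 7866 bp or more from any TSS of another gene. H2-Oa and H2-Ob encode the chains of H2-O, an inhibitor of H2-M. H2-Oa had no peak, and H2-Ob had 1 in replicate 1 alone, with a signal of 0.869.

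Leukocytes make most class II protein, so markers of such cells are given beside these values. Promoters were open for 3 of 8 dendritic cell markers, 3 of 8 B cell markers, 2 of 9 macrophage markers, 1 of 8 T and NK cell markers and 5 of 8 pan-leukocyte markers. Their summed signals in replicates 1 and 2 were 5.49 and 5.20, 11.8 and 8.07, 9.48 and 6.29, 8.26 and 4.84, and 10.5 and 8.11, in that order. The open markers included Zbtb46 of dendritic cells (4.12 and 3.81), Pax5 of B cells (3.76 and 3.01), Mertk of macrophages (7.79 and 5.30), Lck of T cells (7.43 and 4.84) and Coro1a of leukocytes in general (4.30 and 3.21). Markers without a peak in either replicate included Itgax, Xcr1 and Clec9a of dendritic cells, Cd79a and Ms4a1 of B cells, and Csf1r and Adgre1 of macrophages. Ptprc, which marks all leukocytes, had a peak in replicate 1 alone (0.245). The part of such cells in the class II signals was not tested, and in bulk tissue fewer open cells and less accessibility per cell cannot be told apart. Of the markers of the tissue itself, 7 of 8 urothelial, 7 of 7 smooth muscle, 6 of 6 stromal and 4 of 8 endothelial ones were open, beside the 66.1% of all protein-coding genes.

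Both classical class I promoters lay above the median of open promoters in each replicate. H2-K1, for the K molecule, had a signal of 5.97 in replicate 1 and 5.36 in replicate 2. H2-D1, for the D molecule, had 13.3 and 10.1. The mean for H2-D1, 11.7 ± 2.3 (SD, n = 2), was higher than 92.9% of open promoters, and that for H2-K1, 5.67 ± 0.43, higher than 58.9%. H2-D1 exceeded H2-K1 in each replicate, and the values of the 2 genes did not overlap. H2-Ke6, the dehydrogenase gene beside H2-K1, had 5.80 and 4.93.

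The Q and T genes encode class Ib molecules and some of less settled function, and their signals spread from near the lowest values to above the median of all open promoters. H2-Q4 had a signal of 6.65 and 5.25 in replicates 1 and 2. H2-Q7, for a Qa-2 molecule, had 4.22 and 1.97. H2-Q6, its close relative, had 1.30 and 1.34. The 2 values of H2-Q7 differed by 1.10 on the log2 scale, beside a median of 0.25 and an SD of 0.30 over all open promoters with a value in both replicates. H2-Q2 had 0.479 and 0.496, and its mean was higher than only 2.29% of open promoters. H2-Q10, for a secreted liver molecule, had a peak in replicate 1 alone (0.370), and H2-Q1 had none.

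Among the T genes, H2-T24 had 1.52 and 1.61. H2-T23, which encodes Qa-1, the ligand of CD94-NKG2 receptors, had 1.24 and 1.26. H2-T22, for a ligand of gamma delta T cells, had 1.93 and 1.66. These 3 promoters lay between 1.24 and 1.93, all below the H2-M3 values and above those of H2-Q2. H2-T3, for the thymus leukaemia antigen, had no peak.

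Of the 12 M genes, H2-M3 alone was open, at 4.68 and 4.14. H2-M3 presents formylated peptides of bacteria and mitochondria. The other 11, among them H2-M1, H2-M10.1, H2-M10.2 and H2-M10.3, had no peak in either replicate. The H2-M10 and H2-M1 families are known for expression with pheromone receptors in the vomeronasal organ. The deposited false discovery rate (FDR) track, which lists only stretches below 0.05, held no stretch within 1 kb of a TSS for any of the 15 members without a peak. The same was true of 97.0% of the 6355 protein-coding genes without a peak.

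Footprints present in both replicates within 1 kb of a TSS were found for 10 of 25 class I genes (40.0%) and 6 of 9 class II genes (66.7%), beside 61.9% of all protein-coding genes. The gene that was open but had no such footprint was H2-Q2, the weakest of the 17 open promoters. H2-Eb1 had 8 and H2-Ab1 had 9 footprints seen in both, while H2-DMb1 and H2-DMb2 had 1 each.

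The class I promoters are represented by the 200 bases before the RefSeq TSS of H2-D1, H2-Q4 and H2-M3, since these had the highest signals among the D, Q and M genes. All are read 5′ to 3′ on the plus strand of mm10. Capitals mark GGGANTCC with its reverse complement (NF-kB of the enhancer A type), which overlap, and TATAAA.
H2-D1 (chr17:35262894-35263093): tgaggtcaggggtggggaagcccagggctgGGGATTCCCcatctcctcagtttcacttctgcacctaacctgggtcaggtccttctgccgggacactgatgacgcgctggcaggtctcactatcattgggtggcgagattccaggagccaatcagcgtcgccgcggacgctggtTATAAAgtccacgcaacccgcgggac
H2-Q4 (chr17:35379417-35379616): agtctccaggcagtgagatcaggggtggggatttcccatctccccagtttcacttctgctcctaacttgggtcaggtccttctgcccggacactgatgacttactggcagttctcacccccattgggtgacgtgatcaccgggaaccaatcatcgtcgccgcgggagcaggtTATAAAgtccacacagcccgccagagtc
H2-M3 (chr17:37270034-37270233): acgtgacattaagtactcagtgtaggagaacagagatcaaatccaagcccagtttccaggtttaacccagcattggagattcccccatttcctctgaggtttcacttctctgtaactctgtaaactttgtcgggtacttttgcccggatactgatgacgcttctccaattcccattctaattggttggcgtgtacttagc

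In H2-D1, footprints of replicate 1 ran from 187 to 151, from 121 to 88 and from 44 to 27 bases before the TSS, and those of replicate 2 from 193 to 155, 116 to 88 and 41 to 28. The upstream one covered the NF-kB match. H2-Q4 had footprints from 190 to 170, 168 to 162, 126 to 96 and 51 to 35 bases before the TSS in replicate 1. In replicate 2 they ran from 191 to 173, 166 to 160, 156 to 149, 121 to 104, 99 to 93, 49 to 36 and 11 to 2. The promoter of H2-Q4 matched neither set of NF-kB letters searched, GGGANTCC and GGANTTTCC, which each spell a fixed form of that site. It holds ggggatttccc, which differs from both. The footprints from 190 to 170 and 168 to 162 in replicate 1 overlapped that stretch, as did those from 191 to 173 and 166 to 160 in replicate 2. H2-M3 had footprints from 138 to 99 and from 64 to 33 bases before the TSS in replicate 1, and from 139 to 106 and 65 to 12 in replicate 2.

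The NF-kB element and its flanks are printed for the classical and the Qa-2 genes to show how alike they are. With 16 bases on either side of the 8-base match, in capitals, the stretches read as follows.
H2-K1 (chr17:34000434-34000473, minus strand): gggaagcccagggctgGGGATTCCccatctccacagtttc
H2-D1 (chr17:35262908-35262947): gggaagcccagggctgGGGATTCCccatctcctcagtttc
H2-Q6 (chr17:35424662-35424701): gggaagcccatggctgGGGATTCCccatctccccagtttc
H2-Q7 (chr17:35439007-35439046): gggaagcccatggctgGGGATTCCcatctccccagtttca

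At H2-K1, H2-D1 and H2-Q7 a footprint overlapped the element in both replicates. At H2-Q6 the element lay outside the peak, which ran from 35424721 to 35424900 in both replicates, so the lack of a footprint there shows nothing. The element lay 170 bases before the TSS in H2-D1, 172 in H2-Q6, 132 in H2-Q7 and 110 in H2-K1, counted from its first base to the RefSeq start. These distances depend on the start used, and another RefSeq start of H2-K1 gives a longer one. The ATTGG on the strand of the gene shifted along with the element. It began at position -76 from the TSS in H2-D1, -79 in H2-Q6, -40 in H2-Q7 and -16 in H2-K1. Matches on the other strand alone were present in H2-Ke6 and H2-Q10. In all, 6 of 23 class I promoters (26.1%) and no class II promoter held a match, beside 4.54% of all promoters. At the annotated gene starts it was 5 of 25 in class I and 1 of 9 in class II (11.1%, H2-DMb2), beside 4.66%.

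Other motifs were counted in the same promoters. ATTGG was found on either strand in 20 of 23 class I promoters (87.0%) and 7 of 8 class II promoters (87.5%), beside 38.7% of all promoters. Its shares at the annotated gene starts were 76.0%, 66.7% and 39.0%, in that order. TGACG, the X2 core, was found in 47.8%, 12.5% and 24.4%, and at the annotated gene starts in 40.0%, 22.2% and 23.1%. TATAAA was found in 14 of 23 class I promoters (60.9%) and no class II promoter, beside 12.9%. The 14 were 4 of 10 open class I promoters (H2-K1, H2-D1, H2-Q2 and H2-Q4) and 10 of 13 others. At the annotated gene starts it was 13 of 25 in class I (52.0%) and 2 of 9 in class II (22.2%, H2-Oa and H2-DMa), beside 12.6%. GGGCGG, an Sp1 core, was found in 8.70% of class I and no class II promoters, beside 48.0%. Its shares at the annotated gene starts were 12.0%, 11.1% and 43.0%. The interferon-stimulated core GAAANNGAA was found in H2-T22 and H2-T23 (8.70% of class I), beside 8.35%. At the annotated gene starts it was found in 4 of 25 class I promoters, those of H2-Q2, H2-T22, H2-T23 and H2-T24, beside 8.47%. All 4 were among the 11 open class I genes (36.4%), beside 7.18% of all open genes. These are letter matches in a window and no measure of binding. Each set of letters spells a fixed form. A promoter without a match, such as that of H2-K1 or H2-D1 for GAAANNGAA, may therefore hold a variant of the element.

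**Figure D2:**
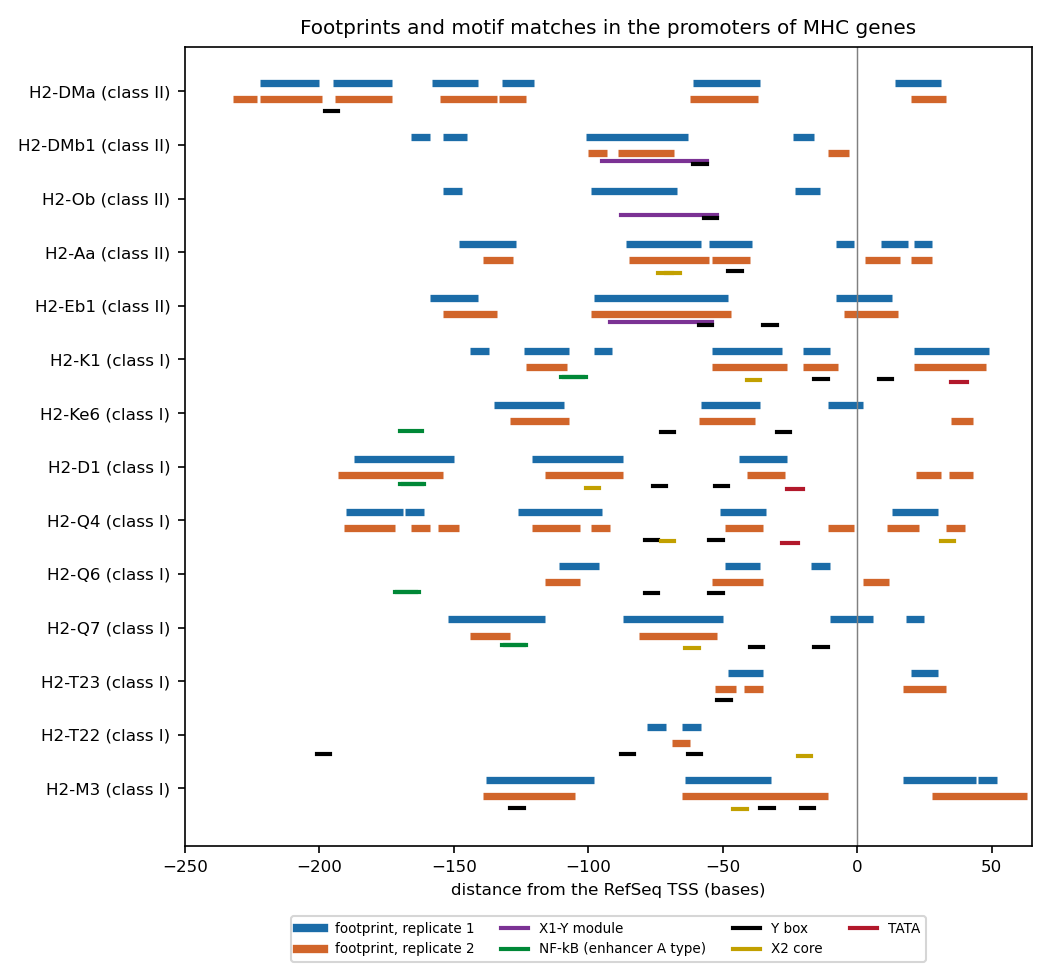
Footprints of both replicates (thick bars) and motif matches (thin bars) along the promoters of the 14 genes with a RefSeq entry and a footprint in it, in bases from the RefSeq TSS. Long footprints of both replicates lie over the X1-Y module of H2-Eb1 and over the NF-kB element of H2-D1.

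The CpG observed/expected ratio, over 300 bases at the annotated gene start, had a median of 0.156 in the 25 class I genes and 0.158 in the 9 class II genes, and over 500 bases on either side the medians were 0.338 and 0.196. Within class I the median over 300 bases was 0.452 in the 11 open genes and 0.138 in the 14 others. All open promoters had a median of 0.716 and those not open 0.171. Open class II promoters were CpG-poor, with 0.113 at H2-Ab1, 0.158 at H2-Aa and 0 at H2-Eb1, all under the lower quartile of open promoters (0.476). H2-DMa had 1.04, at a gene start that lies beside Brd2. Open class I genes with low ratios in this window were H2-Q2 (0.0933), H2-T23 (0.138) and H2-T24 (0.163). Over 500 bases on either side they had 0.634, 0.447 and 0.266. H2-D1 had 0.283 at the annotated gene start and 0.653 in its RefSeq promoter. H2-Q10, which had a peak in replicate 1 alone, had the highest 300-base ratio of the 25 class I genes, 0.654. Over 500 bases on either side it had 0.711, below H2-K1 at 0.795.

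**Figure D3:**
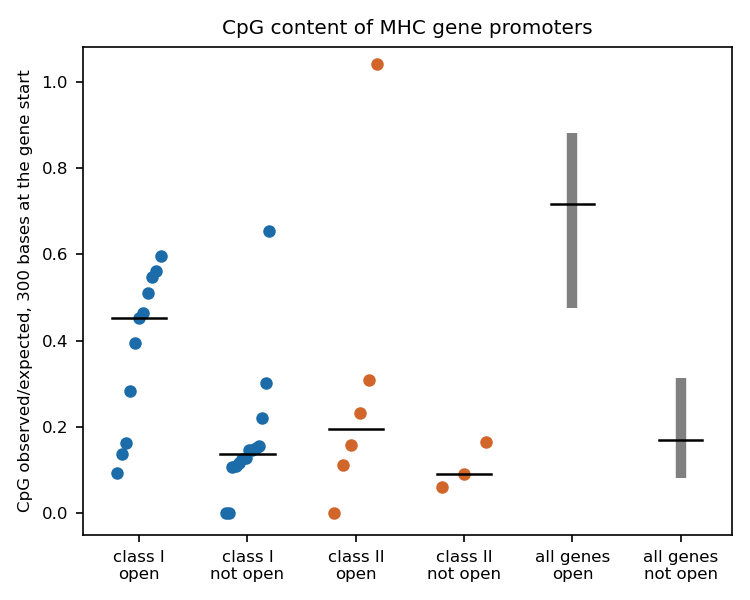
CpG observed/expected ratio of the 300-base promoter for each class I and class II gene by whether its promoter was open. Points are genes, short lines are medians, and the grey bars span the quartiles over the 14500 open and 7438 other promoters of all protein-coding genes. Most open class II promoters sit at the level of promoters that are not open, and H2-Q10 (0.654) stands above the other class I genes that are not open.

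Several class I genes had a further weak region inside the gene, shortly after the start. At H2-K1, chr17:33999521-34000120 was centred 526 bp after the gene start over an exon, with a signal of 0.729 and 0.608 and a CpG ratio of 0.924. At H2-Q4 such a region lay 554 bp after the start (1.03 and 0.919, CpG ratio 0.889). At H2-Q7 it lay 338 bp after the start (0.588 and 0.552, CpG ratio 1.11). The region of H2-Q2 described above, 679 bp after the start and with a ratio of 0.763, was of this kind and was its sole promoter region. H2-T22 and H2-M3 had regions 455 and 671 bp after the start with lower ratios, 0.118 and 0.262. Over all shared regions the median ratio, taken in 200 bases at the centre, was 0.348, while the ratios above span each whole region.

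At least 1 region shared by both replicates lay in the gene or within 10 kb for 18 of 25 class I genes (72.0%) and 9 of 9 class II genes, beside 79.5% of all protein-coding genes. Together these were 65 distinct regions, 40 at class I and 25 at class II genes, of which 34 lay farther than 1 kb from any TSS of a member. The short span from H2-K1 to H2-Ke6 held 18.7 shared regions per 100 kb, and that from H2-Oa to H2-Eb2 held 13.2. These spans also hold 1 and 5 other protein-coding genes, all of them open, whose regions are part of the counts. For the whole stretch from H2-K1 to H2-M2 the value was 8.34. This stretch holds 139 other protein-coding genes, 84 of them open, whose regions are counted too. The span from H2-D1 to H2-Q10 held 5.66, that from H2-T24 to H2-T3 held 8.13, and that from H2-M10.2 to H2-M2 held 3.17, beside 3.39 for the whole of chromosome 17. The last span also holds 19 olfactory receptor genes, of which 1 was open.

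**Figure D4:**
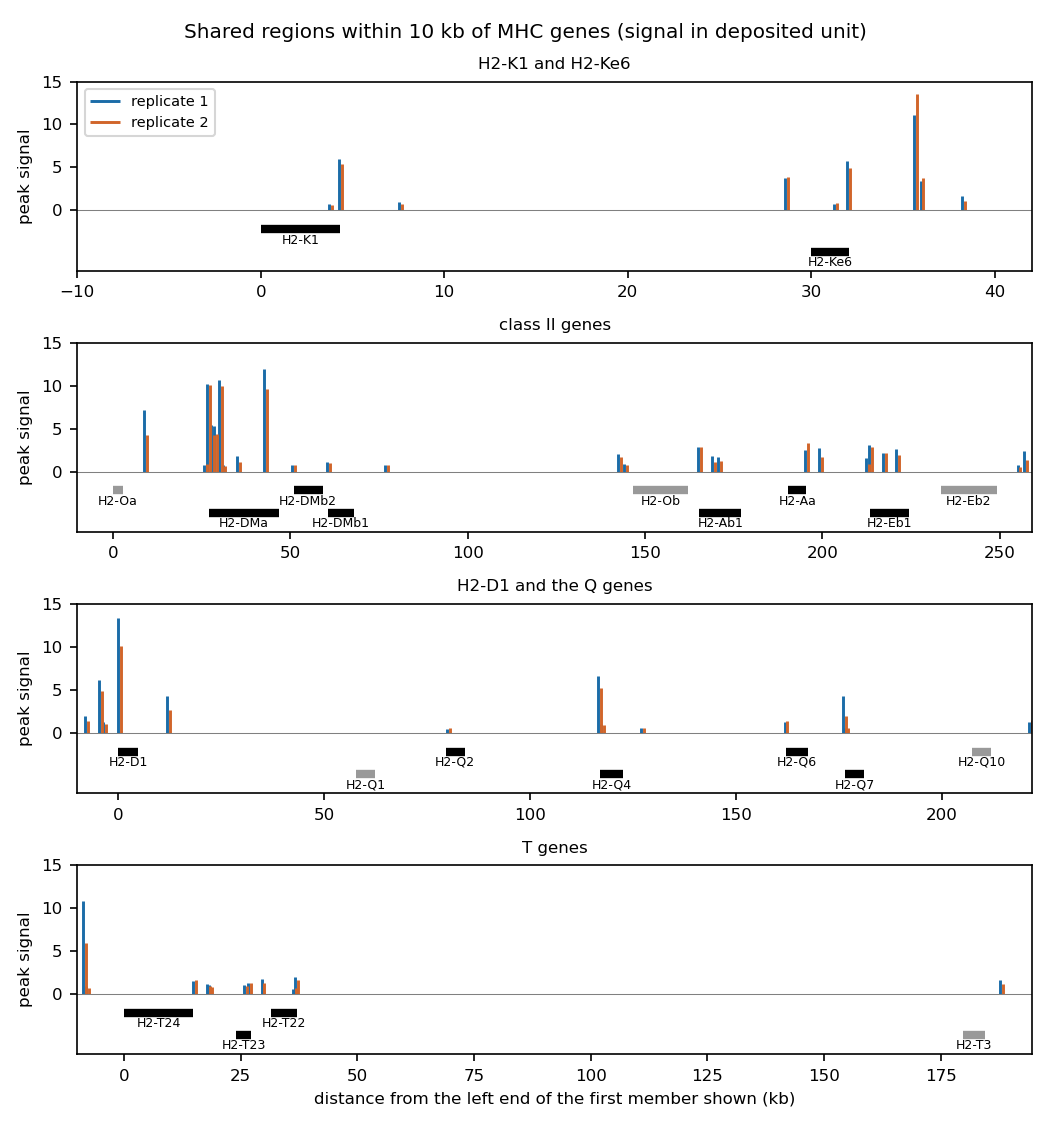
Shared regions within 10 kb of the K, class II, D, Q and T genes (the M genes are not drawn), with the signal of each replicate side by side at the centre of each region, in kb from the left end of the first gene of each panel. Genes with an open promoter are black and the others grey. The strongest class II regions lie at H2-DMa, where both replicates reach about the level of H2-D1, while H2-Q1 and H2-Q10 stand in stretches with few regions.

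Of the 10 highest-ranked regions away from member starts, 6 had the TSS of a non-member as their nearest protein-coding TSS. The region at chr17:34031581-34031820, with 11.1 and 13.5, was centred 19 bp from a TSS of Slc39a7, a zinc transporter gene, and chr17:34031921-34032200 (3.43 and 3.74) lay in an exon of its neighbour Rxrb. The region at chr17:34024581-34024780 (3.77 and 3.87) lay 1 bp from a TSS of Ring1, a Polycomb gene. The region at chr17:34120941-34121680 (5.32 and 4.40) lay in an exon of Brd2. The region at chr17:36997101-36997280 (4.50 and 1.90) lay nearest to Zfp57, 3972 bp away. The region at chr17:35997041-35997300 (10.8 and 5.92) lay in an intron of A930015D03Rik, within 10 kb of H2-T24, and its nearest protein-coding TSS was that of Gnl1, 16783 bp away.

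The other 4 were intergenic or intronic. Around H2-D1 there were regions at chr17:35258241-35258440, with 6.14 and 4.89, 4389 bp from its nearest TSS, and at chr17:35274861-35275040, with 4.29 and 2.66, 8930 bp away. Near H2-Oa, in an intron of CR974462.2, chr17:34101601-34101760 had 7.18 and 4.23, 9259 bp from the nearest TSS of H2-Oa. The intronic region of H2-Eb1 at chr17:34313521-34313700 had 2.67 and 1.89, below the 3.12 and 2.87 of the H2-Eb1 promoter.

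The X-Y module also stood in 2 of the 34 regions away from member starts (5.88%), beside 167 of all 73164 shared regions (0.228%), both counted in 200 bases at the centre of each region. One was in an intron of H2-Ab1 on the strand opposite to the gene, with a signal of 1.81 and 1.12. The other was intergenic beyond H2-Eb2, with 0.781 and 0.504. They are printed for comparison with the promoter modules, 5′ to 3′ on the strand of the match.
H2-Ab1 intron (chr17:34261679-34261729, minus strand): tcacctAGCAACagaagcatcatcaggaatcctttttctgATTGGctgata
beyond H2-Eb2 (chr17:34347713-34347764): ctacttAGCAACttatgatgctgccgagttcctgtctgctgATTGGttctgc

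The intergenic match was overlapped, at least in part, by 1 footprint in replicate 1 and 2 in replicate 2, and the intronic match by 1 in replicate 1 and none in replicate 2.

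Genes that act with the MHC molecules are given by pathway, to be read against the 66.1% of all protein-coding genes that were open, and differences between these lists were not tested. All 14 genes for class I processing and loading were open. B2m, for the light chain of class I molecules, had 7.88 and 6.06. Tap1, for a peptide transporter subunit, and Psmb9, for an immunoproteasome subunit, share a promoter with 13.5 and 9.82. The chaperone genes Calr (13.7 and 12.0) and Canx (10.4 and 10.2) had the other highest values, with Calr above all.

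For class II processing, 2 of 5 annotated genes were open, those for the widely expressed proteases Lgmn (12.4 and 7.82) and Ctsl (6.89 and 6.31). Cd74, for the invariant chain that guides class II molecules, had a peak in replicate 1 alone (0.838). Ctss, for the protease that trims that chain in antigen-presenting cells, had none.

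Of 14 regulator genes, 13 were open. The highest were Nfya (16.1 and 15.3), Rfxank (14.2 and 11.0), Creb1 (11.1 and 12.0) and Nfyc (13.7 and 8.03), which encode factors of the X-Y module. Nlrc5 had 1.86 and 1.74. Ciita, for the coactivator of class II genes, was the regulator with no peak in either replicate. Of 15 interferon-response genes 11 were open (73.3%), led by Stat2 (10.6 and 7.84), and Ifit3, Isg15, Mx1 and Oas1a had no peak. Of 7 class I-like genes outside the complex, 5 were open (71.4%), with Fcgrt, for the neonatal Fc receptor, at 6.47 and 5.08.

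Many class I genes are near-copies of each other, and a read from repeated sequence cannot be placed with certainty. Over 500 bases on either side of the gene start, the share of 32-base words found once in the genome had a median of 87.2% in class I and 100% in class II and in all protein-coding genes. The lowest were H2-Q6 (24.1%), H2-Q7 (36.5%) and H2-T23 (43.4%), all open, so their signals are uncertain. Within the regions that gave these signals the shares were 53.0%, 46.2% and 56.4%. With 75-base words they were 100%, 91.3% and 100%. The 14 class I genes without an open promoter had a median of 90.0%, above the 83.2% of the open ones. For the weak regions inside genes, the share was 17.9% at H2-T22, 64.2% at H2-Q7, 75.7% at H2-K1 and 78.5% at H2-Q4. It was 88.9% at H2-Q2 and 97.8% at H2-M3. The 300-base promoters of class I pairs were identical at a median of 47.2% of alignment columns, gaps included, close to the 46.1% of class II pairs. Of the 253 class I pairs, 12 were above 80%, among them H2-M10.3 with H2-M10.5 (90.3%) and H2-D1 with H2-Q10 (82.2%).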

How the data were processed

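DNase-seq of 2 bladder libraries was analysed from tables made from 1 library each, on build mm10, per the notes deposited with the samples. The authors deposited 2 peak lists with a signal per peak, footprints whose score is the same in every entry, so that only their positions were used, and a track of FDR values (corrected p-values) listed below 0.05. For the aligner, the callers, the read length and the scaling of the signal, the sources used here give nothing. Peaks of the looser list that overlapped by at least 1 bp were merged into regions (Python 3.11.15, pandas 2.3.3). Genes and TSSs came from GENCODE on the same build, and promoter sequences from RefSeq. A gene's promoter signal is its strongest peak within 1 kb of any TSS in each replicate. All members with a peak, all class II genes, up to 4 silent genes per class I subfamily and the 10 highest-ranked regions away from member starts are named, and of each pathway list up to 4 open and 4 silent genes. B2m, Nlrc5, Cd74, Ptprc, the regions inside genes and the X-Y matches away from promoters were picked with their values in view. The steps were tested on simulated data. The members, lists and motifs were chosen with earlier results of these data known. Alternatives were other peak lists, overlaps, windows, flanks and word lengths, and each replicate alone.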

Additional observations from a re-analysis of the deposited data

How the results depend on the processing

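The counts of open promoters stayed within 1.5 times the reported values under each alternative tried, from 10 to 12 for class I and from 5 to 7 for class II genes. With the stricter deposited list, or with the stronger 50% of the peaks, H2-Q2 and H2-DMb2 were lost and the other 15 open members were kept. With replicate 2 left out, H2-Q10 and H2-Ob also had a peak; without either replicate the class II median signal ranged from 2.49 to 2.84 and the number of class I regions from 48 to 63, against 40 in both. Distinct class I regions numbered 26 with the stricter list. With no flank, 10 class I genes had a region, with 17 distinct regions at class I and 15 at class II genes, and a flank of 50 kb gave 96 at class I genes. The class I median share of unique words rose to 99.7% with 75-base words. H2-Q6 remained at 39.3% over 500 bases on either side of its gene start. The class I median CpG ratio was 0.338 over 500 bases on either side of the gene start, 0.225 in the RefSeq promoters (an alternative added after seeing the data) and 0.156 as first taken. No paired analysis was possible because there is 1 group. Reads of the CAST/EiJ copy that differ from the reference may be lost where the MHC genes are most variable, which was not tested, and nothing here measures RNA or protein.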

Other observations

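The H2 complex also holds 11 annotated genes of the same prefix that are not protein-coding and so were not counted. Peaks of both replicates lay within 1 kb of a TSS for 5 of them. The pseudogene H2-K2, near H2-K1, had a signal of 2.30 in replicate 1 and 2.25 in replicate 2, above the values of the 3 open T genes. H2-Pb, a class II pseudogene, had 2.61 and 1.14. H2-Bl had 0.833 and 0.743, H2-T10 had 0.510 and 0.536 and H2-T-ps had 0.495 and 0.528. H2-Q5 had a peak in replicate 1 alone (0.333). H2-Ea-ps, the disrupted E alpha gene of C57BL/6 mice, H2-Pa, H2-Q3, H2-M10.5-ps1 and H2-M6-ps had none.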
